A study of Homo sapiens with 6 samples.

Results

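The genes described here are 36 genes of the integrated stress response and of the unfolded protein response, chosen by name from a list, and all 36 were found among the 17211 genes of the deposited table by their symbols. They comprise 17 genes of the ATF4 arm, 3 genes of the endoplasmic reticulum (ER) stress sensors (ATF6, ERN1 and the IRE1 target XBP1), 13 genes of the ER chaperone arm and 3 genes of ER-associated degradation (ERAD). The data are poly(A) RNA-seq of CAOV2, a human ovarian cancer cell line whose sample titles also call the cells primary. A total of 3 libraries came from cells given a non-targeting siRNA (siNT) and 3 from cells given siRNA against YAP (siYAP), the co-activator encoded by YAP1. Cells of both groups were grown in serum-containing medium and received 100 pmol of siRNA in a 2-day lipid transfection (6 µL), with collection at day 3 and no stress inducer named in the labels. The YAP and control siRNAs were products of different suppliers, so that a reagent's side effects cannot be told apart from the loss of YAP, and a single cell line was used.

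The integrated stress response starts when kinases phosphorylate the initiation factor eIF2α. Most translation then slows, while the mRNA of the transcription factor ATF4 is translated better, and ATF4 switches on genes for amino acid synthesis, amino acid import and stress control. The unfolded protein response is set off by misfolded protein in the ER through the sensors PERK, which is one of the eIF2α kinases, IRE1, which splices the XBP1 mRNA, and ATF6, which is cut and moves to the nucleus. ATF6 and spliced XBP1 raise ER chaperones and ERAD components. Gene-level counts of mRNA show neither the translation of ATF4, nor the splicing of XBP1, nor the cleavage of ATF6.

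The factors of these arms are known to read short promoter motifs, and the promoters of several members hold them. RefSeq promoter windows (GRCh38.p14, from 250 bases before to 50 after an annotated start) were found for 32 of the 36 genes, and those of EIF4EBP1, PDIA3, PSPH and SHMT2 were not. The ER stress response element (ERSE), searched on both strands as CCAAT followed after 9 unspecified bases by CCACG, was present in 6 of 12 genes of the ER chaperone arm and in XBP1, and in none of the 14 ATF4 arm genes with a window. It was present in 0.0916% of all 27305 genes with a window and in 0.0769% of all 35116 windows. These runs of 30 bases, read 5′ to 3′ along the strand that holds the motif, show the ERSE in capitals for the chaperone genes and XBP1:
HSPA5: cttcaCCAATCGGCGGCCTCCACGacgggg
HSP90B1, distal: cctgaCCAATCGGAAGGAGCCACGcttcgg
HSP90B1, proximal: acccaCCAATCGCGCCGCACCACGcaccca
CALR: accgaCCAATGATGGTCGACCACGcgtggg
PDIA6: ccggaCCAATGAGCCGCAGCCACGgcttgg
CRELD2: atggcCCAATCCGAGTTCGCCACGagaggt
XBP1: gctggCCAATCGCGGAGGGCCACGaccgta

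The HSPA5 run lies at chr9:125241385-125241414 and the XBP1 run at chr22:28800597-28800626, with the first base of the motif 66 and 52 bases before the RefSeq start. The runs of HSP90B1, PDIA6, CRELD2 and XBP1 overlap the bounds of their genes in GENCODE 29, which hold longer transcripts, as do those of ASNS and CHAC1 shown further on. The runs of CALR and CRELD2, and the proximal one of HSP90B1, are on the strand opposite to the gene. CANX also holds an ERSE, which is not printed since its run reaches past one of the annotated starts. A second form, ERSE-II, searched on both strands as ATTGG followed after 1 unspecified base by CCACG, was present in HYOU1, SDF2L1 and HERPUD1. It was held by 0.0696% of all genes with a window and by 0.0541% of all windows. The CARE, the element read by ATF4 and its partners (TGATGNAAN, both strands), was present in 4 of 14 genes of the ATF4 arm with a window (ATF3, ASNS, CHAC1 and SLC7A1) and in HERPUD1. It was held by 4.45% of all genes with a window and by 3.61% of all windows. Its letters are less specific, so that single matches are more common. In these runs the ERSE-II or the CARE is in capitals, to set the single gene that holds both elements beside genes that hold one:
HYOU1, ERSE-II proximal: cgcgtactcATTGGACCACGtcccaggccc
SDF2L1, ERSE-II: agggttttgATTGGTCCACGcttccgagga
HERPUD1, ERSE-II: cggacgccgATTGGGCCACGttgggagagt
HERPUD1, CARE: gggcacgggcTGATGCAACccgccgcgtct
CHAC1, CARE: ctggcaggagTGATGCAACggcaggggagg
ASNS, CARE: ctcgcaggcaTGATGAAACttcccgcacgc

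HYOU1 holds a second ERSE-II further upstream, which overlaps a match to the core of the UPR element (UPRE, TGACGTGG, both strands, 0.927% of all genes with a window and 0.729% of all windows), and no other member held that core. The HERPUD1 runs lie at chr16:56932016-56932045 (ERSE-II) and chr16:56931954-56931983 (CARE). A match describes these letters in these windows and was not tested as a site of binding.

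The targeted gene was checked first. YAP1 (ENSG00000137693, GRCh38 chromosome 11, 102110461 to 102233423, plus strand) read 6221, 5801 and 5955 normalized counts in siNT and 278, 327 and 294 in siYAP, or 5.00% of its control level. The values are read counts scaled by a single factor for each library. Depth ranged from 25478595 to 31790340 recovered reads. Fold changes below are differences of log2(value + 1), and a gene is called higher or lower where limma's Benjamini-Hochberg adjusted p over all 17200 tested genes was under 0.05. The labels call the libraries biological replicates without saying whether they came from separate cultures, so the p-values reflect only how far these libraries scatter, which may be technical. In bulk RNA a change in the mix of cells and a change in RNA per cell cannot be told apart. Of the markers of epithelium and ovarian carcinoma, 9 of 10 were measured, with summed values of 97262 to 105667 in siNT and 73107 to 79482 in siYAP, and WT1 was not analysed here. Of these, 2 rose, 4 fell and 3 were not called. EPCAM (log2 0.74) and CDH1 (log2 0.93), named after their values were seen, rose. KRT18 (log2 -0.68), KRT7 (log2 -0.97) and MECOM (log2 -0.94) fell. KRT8 (log2 -0.090) was not called, though it was called lower without siNT replicate 1 or siYAP replicate 1. Keratins made up most of the sums, with siNT means of 35206 (KRT8), 27495 (KRT18), 22847 (KRT7) and 14965 (KRT19). The ovarian carcinoma markers PAX8 and MUC16, also named after their values were seen, had low counts and were not called. PAX8 read 28.8 ± 13.9 in siNT and 17.1 ± 4.26 in siYAP, and MUC16 11.9 ± 3.67 and 14.2 ± 4.28 (SD, n = 3). Immune markers summed to 198 to 214 in siNT and 143 to 160 in siYAP over the 4 of 6 that were measured, CD79A, LYZ, CD14 and CD68, while PTPRC and CD3E were not analysed here. Over 5 of 6 fibroblast markers the sum was 5605 to 6387 in siNT and 14282 to 14787 in siYAP, with LUM (log2 1.37) and COL3A1 (log2 2.22) higher, COL1A2 lower (log2 -2.60) and DCN not analysed here. Of 5 endothelial markers ESAM alone was measured, at 1774 ± 99.9 against 1296 ± 39.2 normalized counts (SD, n = 3). The part of these shifts in the results below was not tested.

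Of the 36 genes, 16 were higher in siYAP, 10 were lower and 10 were not called. Among all tested genes 56.8% were called, 28.6% higher and 28.1% lower, against 72.2% of the 36. Since the 36 are well expressed, the nearer background is that of the 9905 genes with a mean at or above that of the lowest of them, CHAC1 (273 normalized counts), of which 70.9% were called. The share of called genes was thus close to that of these 9905 genes, which share a lowest level with the 36 but were not matched to them in level. The results lie in which genes moved and in which direction. In 29 of the 36 the libraries of the 2 groups did not overlap, against 61.5% of all tested genes. That share was not computed for the 9905 genes, so the 2 values are not a like comparison.

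**Figure D1:**
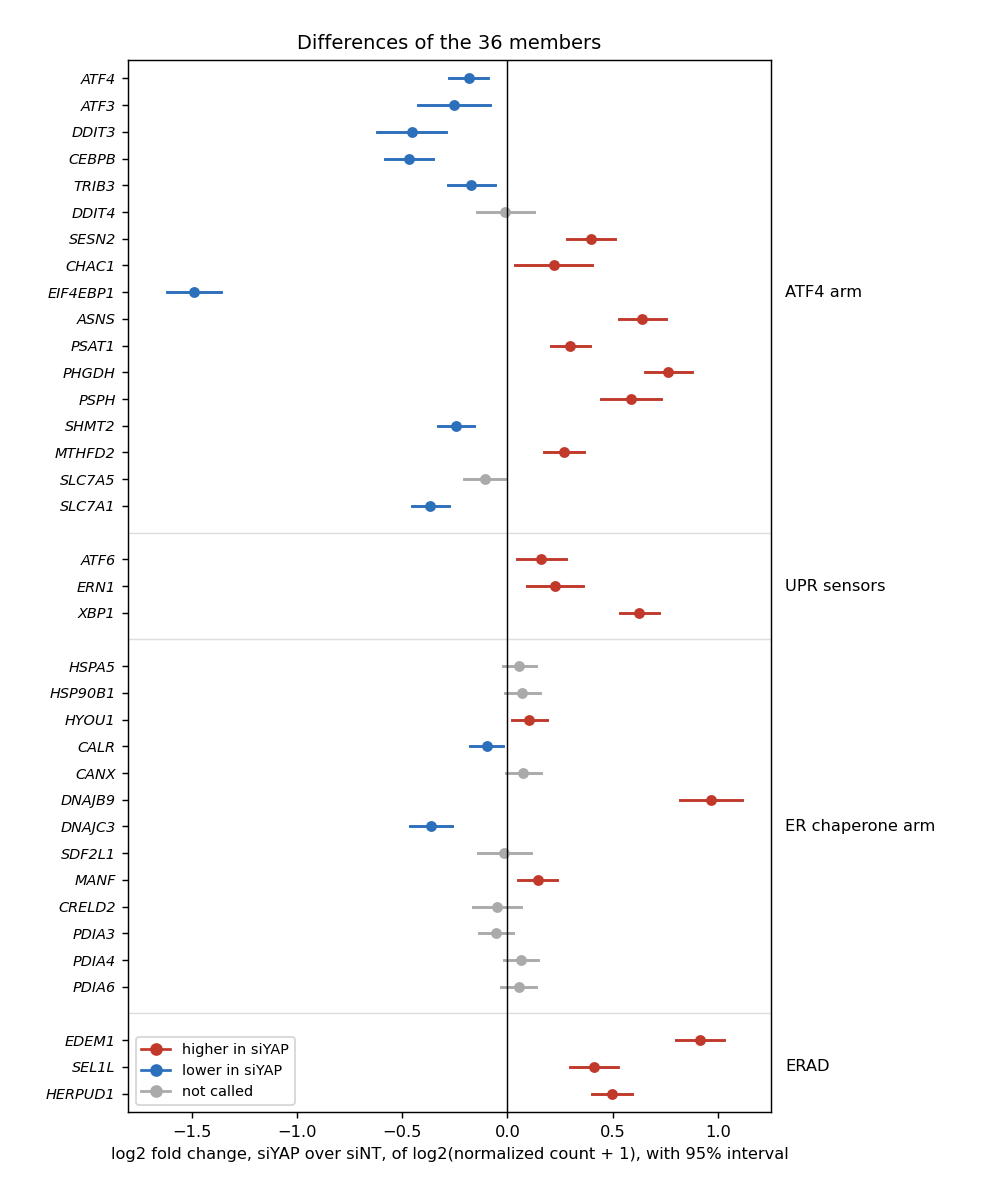
Differences of the 36 genes, as log2 fold change of siYAP over siNT (horizontal axis) with unadjusted 95% intervals from limma, coloured by the call at an adjusted p under 0.05 and grouped by arm. The ATF4 arm spreads from -1.49 (EIF4EBP1) to 0.76 (PHGDH), whereas 11 of the 13 genes of the ER chaperone arm lie within 0.15 of 0.

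In the ATF4 arm, 8 of 17 genes fell, 7 rose and 2 were not called, with a median log2 difference of -0.11 and a median absolute difference of 0.30. Over all tested genes these were 0.0036 and 0.30, and over the 9905 genes at or above the level of CHAC1 -0.034 and 0.25. Leaving out 1 library moved the median of the ATF4 arm between -0.16 (without siNT replicate 1) and -0.069 (without siNT replicate 3), and 6 to 9 genes were lower, with the 6 also without siNT replicate 3. By role, all 4 transcription factors were lower, 5 of the 6 amino acid and one-carbon enzymes were higher and 1 was lower, 2 of the 5 stress effectors were higher and 2 lower, and 1 of the 2 transporters was lower. No test of role against direction was made. In the ER chaperone arm, 3 of 13 genes rose, 2 fell and 8 were not called, with a median of 0.057 and a median absolute difference of 0.07. The difference between the arms was not tested as such. These counts depend on the scaling, since with equal library totals, which shifted the median of all genes to 0.09, 5 genes of the ATF4 arm were lower and 8 of the chaperone arm were higher. That scaling made 62.1% of all called genes higher ones, against 50.4% with the authors' size factors.

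ATF4 itself (GRCh38 chromosome 22, 39519695 to 39522685) fell slightly. Its normalized counts were 4587, 4595 and 4807 in siNT and 4172, 4141 and 3995 in siYAP, so that no siYAP library reached the siNT range. The log2 fold change was -0.18 (standard error 0.044, limma adjusted p = 0.00103), and the call was lost with equal library totals (log2 -0.097, adjusted p = 0.0554).

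DDIT3, which encodes the pro-apoptotic factor CHOP, read 420, 438 and 477 in siNT and 305, 333 and 335 in siYAP. It fell to 72.8% of its control level (log2 -0.46, standard error 0.079, limma adjusted p = 3.96e-05). On the opposite strand it overlaps MARS1, which also fell (log2 -0.22), and MBD6, which rose (log2 0.28), and their reads cannot be told apart unless strand was used in counting. CEBPB, a bZIP factor that pairs with ATF4, read 2524, 2705 and 2833 in siNT against 2033, 1991 and 1807 in siYAP, a fall of 0.47 on the log2 scale (limma adjusted p = 1.92e-07). ATF3, a stress-induced bZIP repressor, differed less, with values of 352, 378 and 411 in siNT and 306, 313 and 337 in siYAP (log2 -0.25, limma adjusted p = 0.0124). Its call was lost with equal library totals (adjusted p = 0.0915) and without siNT replicate 3 (adjusted p = 0.0802). In all 4 factor genes siNT replicate 3 was the highest of the siNT libraries and siNT replicate 1 the lowest, and even the latter lay above every siYAP library.

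Of the 6 amino acid and one-carbon enzymes of the arm, 5 rose and 1, SHMT2, fell. The serine synthesis pathway turns a glycolytic intermediate into serine through PHGDH, PSAT1 and PSPH, in that order, and all 3 of its genes rose. PHGDH (GRCh38 chromosome 1, 119648411 to 119744226) read 2467, 2858 and 2702 normalized counts in siNT and 4792, 4551 and 4283 in siYAP. It was at 170% of its control level (log2 0.76, standard error 0.055, limma adjusted p = 7.49e-11). PSPH, which makes the last step, was tight within groups, at 382, 378 and 384 in siNT and 575, 591 and 555 in siYAP (log2 0.59, limma adjusted p = 2.09e-07). PSAT1, the transaminase of the middle step, read 4478, 4466 and 4269 in siNT and 5285, 5355 and 5617 in siYAP (log2 0.30, limma adjusted p = 4.72e-06). In each of the 3 genes the lowest siYAP library lay above the highest siNT library.

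ASNS, asparagine synthetase and a standard ATF4 target, rose from 1357 ± 94.6 to 2114 ± 43.8 normalized counts (n = 3, SD; log2 0.64, limma adjusted p = 1.18e-09). Its libraries read 1464, 1322 and 1285 in siNT and 2117, 2069 and 2156 in siYAP. The mitochondrial one-carbon enzymes split. MTHFD2, the mitochondrial methylenetetrahydrofolate dehydrogenase, rose (4408 ± 116 to 5314 ± 225 normalized counts, SD, n = 3; log2 0.27). SHMT2, which feeds that pathway from serine, fell (10525 ± 300.0 to 8891 ± 224, SD, n = 3; log2 -0.24). Limma adjusted p-values were 2.47e-05 and 2.91e-05, and neither pair of groups overlapped. Both overlap a listed gene on the opposite strand, SLC4A5 and NDUFA4L2, whose means were at most 5.26 and 104 normalized counts.

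**Figure D2:**
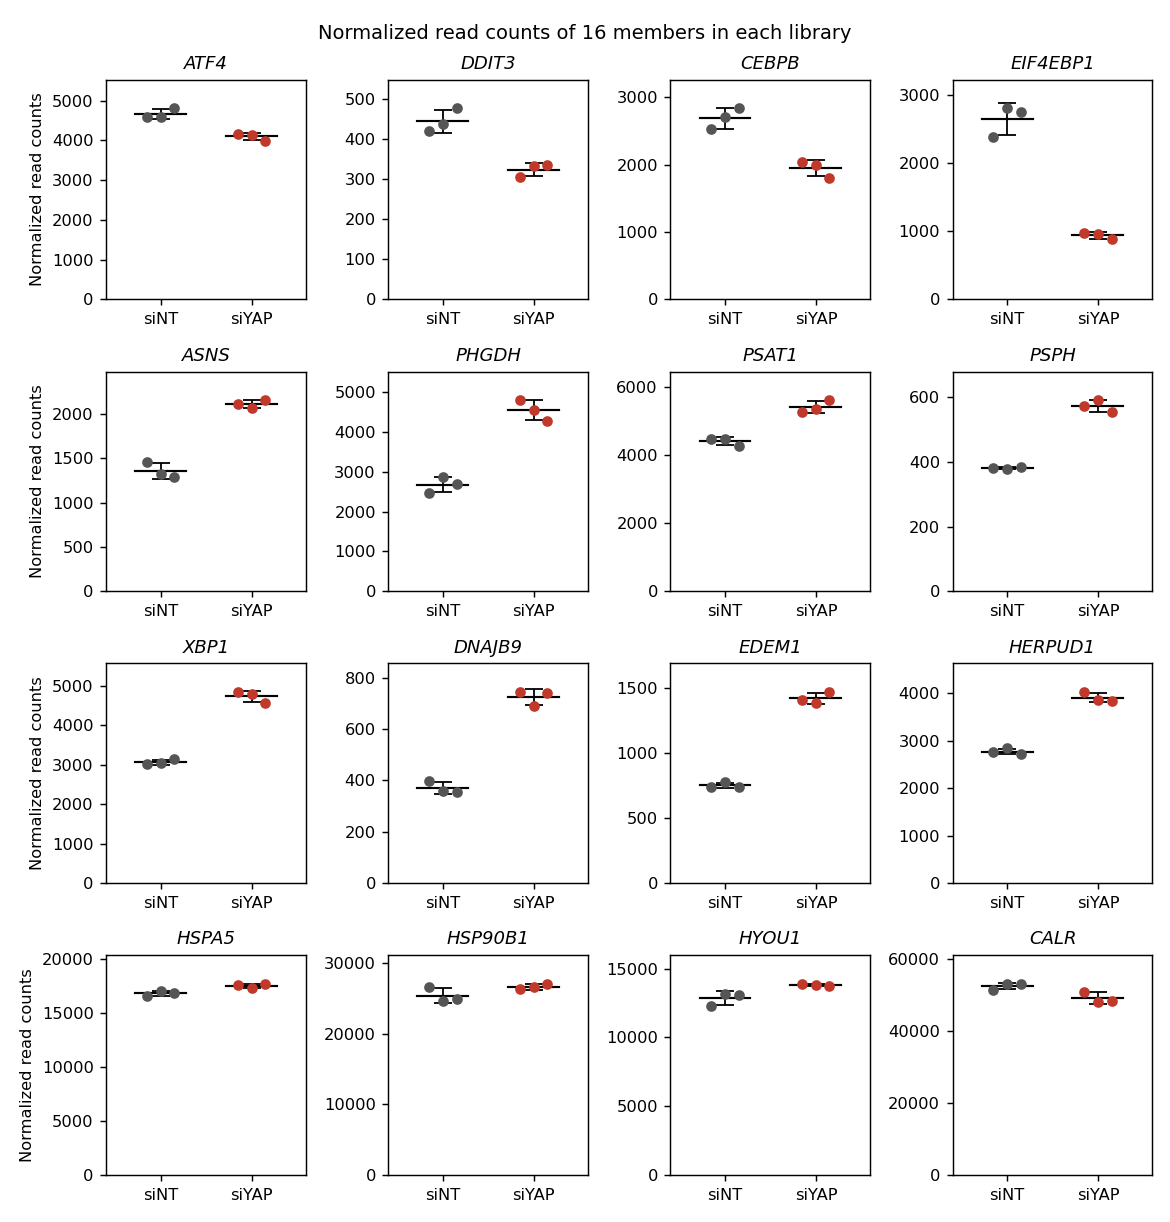
Normalized read counts (vertical axis, linear, from 0) of 16 of the genes in the 3 siNT and the 3 siYAP libraries. Each point is a library, the horizontal line is the group mean and the bar is 1 SD. ATF4, DDIT3, CEBPB and EIF4EBP1 in the top row are lower in siYAP, the enzymes ASNS, PHGDH, PSAT1 and PSPH and the genes XBP1, DNAJB9, EDEM1 and HERPUD1 are higher, and the chaperone genes in the bottom row lie close together.

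The stress effectors moved singly. EIF4EBP1, which encodes the translation repressor 4E-BP1, had the largest fall of the 36 genes. Its libraries read 2381, 2805 and 2758 normalized counts in siNT and 973, 963 and 886 in siYAP, or 35.5% of the control level (log2 -1.49, standard error 0.061, limma adjusted p = 8.21e-15). SESN2, sestrin 2, which restrains mTORC1 when leucine is low, rose from 986 ± 46.1 to 1297 ± 26.5 (SD, n = 3; log2 0.40, limma adjusted p = 2.15e-06).

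TRIB3, a pseudokinase that dampens ATF4 output, fell by 0.17 on the log2 scale (1391 ± 68.4 to 1235 ± 34.3 normalized counts, SD, n = 3; limma adjusted p = 0.00971). The call was lost with equal library totals (adjusted p = 0.184) and without siNT replicate 3 (adjusted p = 0.0714). CHAC1, which degrades glutathione and is among the most ATF4-dependent genes known, read 246, 237 and 273 in siNT and 281, 298 and 302 in siYAP. It was called higher (log2 0.22, limma adjusted p = 0.0382), with a gap between the groups that is small beside their spread. The call was lost in 6 alternatives, which left out siNT replicate 1, siNT replicate 2, siYAP replicate 2 or siYAP replicate 3, used the replicate number as a block or used DESeq2, with adjusted p up to 0.130. DDIT4, the mTORC1 inhibitor REDD1, overlapped between groups at 1161 ± 102 and 1151 ± 76.6 (SD, n = 3), with a 95% interval of the log2 difference from -0.14 to 0.12.

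Of the amino acid transporter genes, SLC7A1, which carries cationic amino acids, fell from 6986 ± 185 to 5420 ± 37.1 normalized counts (n = 3, SD; log2 -0.37, limma adjusted p = 1.25e-07). SLC7A5, the LAT1 light chain that imports leucine, read 11969, 13162 and 13629 in siNT and 12499, 11834 and 11586 in siYAP, and the groups overlapped (log2 -0.11, limma adjusted p = 0.0565). It was called lower without siNT replicate 1 (adjusted p = 0.000546) and without siYAP replicate 1 (adjusted p = 0.0206). A listed pseudogene, SLC7A5P1, could share its reads.

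All 3 genes of the sensor group rose. XBP1 (GRCh38 chromosome 22, 28794555 to 28800597, minus strand), whose mRNA is the substrate of IRE1, read 3016, 3042 and 3142 normalized counts in siNT and 4843, 4784 and 4568 in siYAP. It was at 154% of its control level (log2 0.63, standard error 0.045, limma adjusted p = 7.40e-11), and the gap between the groups was far wider than the spread within them. ERN1, which encodes IRE1α, rose from 553 ± 6.44 to 647 ± 22.6 (SD, n = 3; log2 0.23, limma adjusted p = 0.00446). ATF6 rose from 1155 ± 32.8 to 1292 ± 70.5 (SD, n = 3; log2 0.16, limma adjusted p = 0.0173), a call that was lost without siNT replicate 2, siYAP replicate 2 or siYAP replicate 3 and in limma without trend or robust (adjusted p of 0.0631 to 0.0944).

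The genes of ERAD, which moves misfolded proteins out of the ER for destruction, also rose in all 3 cases. EDEM1 (GRCh38 chromosome 3, 5187646 to 5219957), a lectin-like factor that hands misfolded glycoproteins on, read 743, 776 and 742 in siNT and 1408, 1385 and 1470 in siYAP, or 189% of its control level (log2 0.91, standard error 0.055, limma adjusted p = 4.46e-12). HERPUD1, an ER membrane protein of the HRD1 ligase complex whose promoter runs are shown above, read 2757, 2842 and 2725 in siNT and 4029, 3871 and 3843 in siYAP (log2 0.50, limma adjusted p = 3.60e-09). SEL1L, the adaptor of the same ligase, rose from 2250 ± 191 to 2987 ± 122 (SD, n = 3; log2 0.41, limma adjusted p = 1.47e-06). In all 3 genes the groups were apart in every library.

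**Figure D3:**
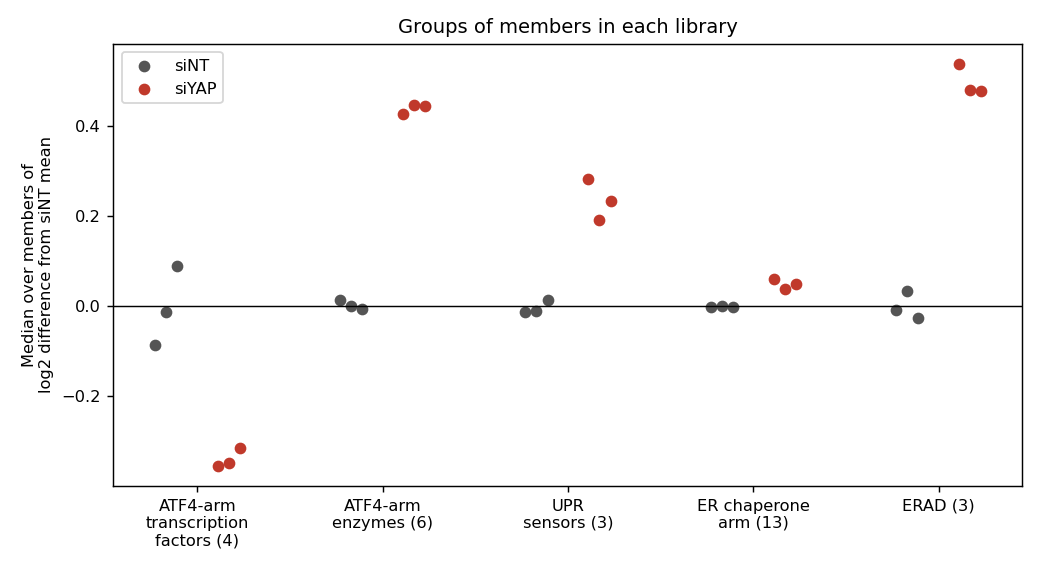
For 5 groups of genes, the median over their members of the log2 difference from the siNT mean (vertical axis) in each library, with siNT in grey and siYAP in red, as a description without a test. The factors of the ATF4 arm lie between -0.35 and -0.32 in siYAP, its enzymes between 0.43 and 0.45, the ERAD genes between 0.48 and 0.54 and the chaperone arm between 0.038 and 0.061.

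Most of the abundant chaperones of the ER hardly differed. HSPA5, which encodes BiP, the main ER chaperone and the repressor of the sensors, read 16585, 17029 and 16792 normalized counts in siNT and 17529, 17245 and 17665 in siYAP. The groups did not overlap, but the difference was small (log2 0.057, 95% interval -0.022 to 0.14, limma adjusted p = 0.210). HSP90B1, the ER form of HSP90 (GRP94), differed by 0.07 (95% interval -0.012 to 0.15), and the lectin chaperone gene CANX by 0.076 (95% interval -0.008 to 0.16). The disulfide isomerase genes PDIA4, PDIA6 and PDIA3 differed by 0.064, 0.053 and -0.054, with intervals that together ran from -0.14 to 0.14. A listed pseudogene, PDIA3P1, could share the reads of PDIA3. For SDF2L1 and CRELD2, which are raised strongly by ER stress in many cells, the log2 differences were -0.016 and -0.050, and the groups overlapped. None of these 8 genes was called with the authors' size factors, whereas with equal library totals HSPA5, HSP90B1, CANX, PDIA4 and PDIA6 were higher (log2 0.14 to 0.16, limma adjusted p of 0.0014 to 0.0038). Without siNT replicate 1, HSP90B1 (adjusted p = 0.0107) and CANX (adjusted p = 0.00919) were called higher as well, and CANX was called higher with upper-quartile factors (adjusted p = 0.0479).

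Of the called genes of this arm, 3 were within 0.15 of 0 on the log2 scale. HYOU1, a large HSP70-like chaperone, rose by 0.10 (limma adjusted p = 0.0337), and MANF, a secreted protein that binds BiP, rose by 0.14 (limma adjusted p = 0.00915). CALR, calreticulin, fell by 0.098 (limma adjusted p = 0.0293). The call of CALR was lost in 9 of 16 alternatives (adjusted p up to 0.810, with equal library totals) and that of HYOU1 in 6 of 16 (adjusted p up to 0.117), among them the leaving out of siYAP replicate 2 or siYAP replicate 3 for both genes, of siNT replicate 2 or siNT replicate 3 for CALR, and of siNT replicate 1 or siYAP replicate 1 for HYOU1. MANF was called in all 16.

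DNAJB9 and DNAJC3, which encode BiP cochaperones, stood apart from the rest of the arm and moved in opposite directions. DNAJB9 (ERdj4), which assists BiP and ERAD, read 397, 360 and 354 normalized counts in siNT and 744, 689 and 739 in siYAP. It was at 195% of its control level (log2 0.97, standard error 0.071, limma adjusted p = 1.25e-10). DNAJC3 (p58IPK), a BiP cochaperone also known to inhibit eIF2α kinases, fell from 7030, 6392 and 6629 to 4895, 5335 and 5360 (log2 -0.36, limma adjusted p = 1.05e-06). The groups did not overlap in either gene. DNAJB9 overlaps THAP5 (log2 -0.28, lower) and PNPLA8 (log2 0.022, not called) on the opposite strand. In all, 10 of the 36 genes overlap a listed gene.

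Among the 10 genes whose promoter windows hold an ERSE or ERSE-II, XBP1, HERPUD1 and HYOU1 were higher, CALR was lower and HSPA5, HSP90B1, CANX, PDIA6, CRELD2 and SDF2L1 were not called. Outside the ATF4 arm, EDEM1, SEL1L, DNAJB9, MANF, ATF6 and ERN1, which rose, held neither of these motifs in the windows searched. Neither did DNAJC3, which fell, nor PDIA4, which was not called. Of the 5 genes with a CARE, ASNS, CHAC1 and HERPUD1 rose, and ATF3 and SLC7A1 fell. Among the 9905 genes at or above the level of CHAC1 70.9% were called, and no test of motif against call or direction was made.

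The other genes of these pathways were read from lists, and no list was tested against the background. Of all tested genes 56.8% were called, 28.6% higher and 28.1% lower, and of the 9905 at or above the level of CHAC1 70.9%. The share called was 83.3% for the control of eIF2α, 78.3% for further ATF4 targets, 65% for tRNA synthetases and 53.3% for oxidative folding. It was 70.4% for the translocon list, 66.7% for factors and proteases, 91.7% for cytosolic heat shock genes and 75% for mitochondrial chaperones. The lists begin with the control of eIF2α. Of 12 such genes, 4 rose, 6 fell and 2 were not called, with a median log2 fold change of -0.11. EIF2AK3, which encodes PERK, rose from 814 ± 21.8 to 1131 ± 33.6 normalized counts (n = 3, SD; log2 0.47, limma adjusted p = 2.21e-07), and EIF2AK4, the amino acid sensor GCN2, rose as well (log2 0.26). PPP1R15A (GADD34), the stress-induced subunit of the eIF2α phosphatase, fell from 4311 ± 294 to 2867 ± 57.7 (SD, n = 3; log2 -0.59, limma adjusted p = 1.33e-09). EIF2AK1, the heme-regulated kinase (log2 0.072), and EIF2S1, which encodes eIF2α (log2 0.02), were not called, and EIF2AK1 was called higher with equal library totals and without siNT replicate 1. The 5 subunits of eIF2B, the exchange factor that phosphorylated eIF2α blocks, were singled out after their values were seen: EIF2B1 to EIF2B5 all fell, by 0.25 to 0.30 on the log2 scale, with limma adjusted p of 4.49e-05 to 0.000412.

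Of 23 measured genes among 24 further ATF4 targets, 13 rose, 5 fell and 5 were not called, with a median of 0.30. SLC7A11, which imports cystine, rose from 369.7 ± 53.3 to 1435 ± 140 normalized counts (n = 3, SD; log2 1.96). VLDLR, a lipoprotein receptor (324 ± 12.1 to 1256 ± 38.8, SD, n = 3; log2 1.95), and ALDH1L2, a mitochondrial one-carbon enzyme (log2 1.18), rose as well. The abundant transporter genes SLC38A2 (log2 -0.29) and SLC1A5 (log2 -0.33) fell, as SLC7A1 did. Chosen after their values were seen, NUPR1, a stress-induced chromatin protein, rose from 14.7 ± 1.22 to 130 ± 12.7 (SD, n = 3; log2 3.06), and CBS, the first enzyme of transsulfuration, from 179.5 ± 10.6 to 571 ± 37.5 (SD, n = 3; log2 1.66). All 7 were called, with limma adjusted p from 2.33e-16 to 2.91e-05. The bZIP factor genes of the list, also named after their values were seen, went both ways: CEBPG (log2 0.37) and JDP2 (log2 0.65) rose and ATF5 fell (log2 -0.64).

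The cytosolic aminoacyl-tRNA synthetases charge tRNAs, and many of their genes are known ATF4 targets. Of 20, 9 fell, 4 rose and 7 were not called, with a median of -0.093. YARS1, for tyrosine (log2 -0.57), and FARSA, for phenylalanine (log2 -0.49), fell most clearly, and GARS1, for glycine, rose (log2 0.33). KARS1, for lysine, fell by 0.13, a call lost with equal library totals (adjusted p = 0.299), and TARS1, for threonine, was not called (log2 -0.049).

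**Figure D4:**
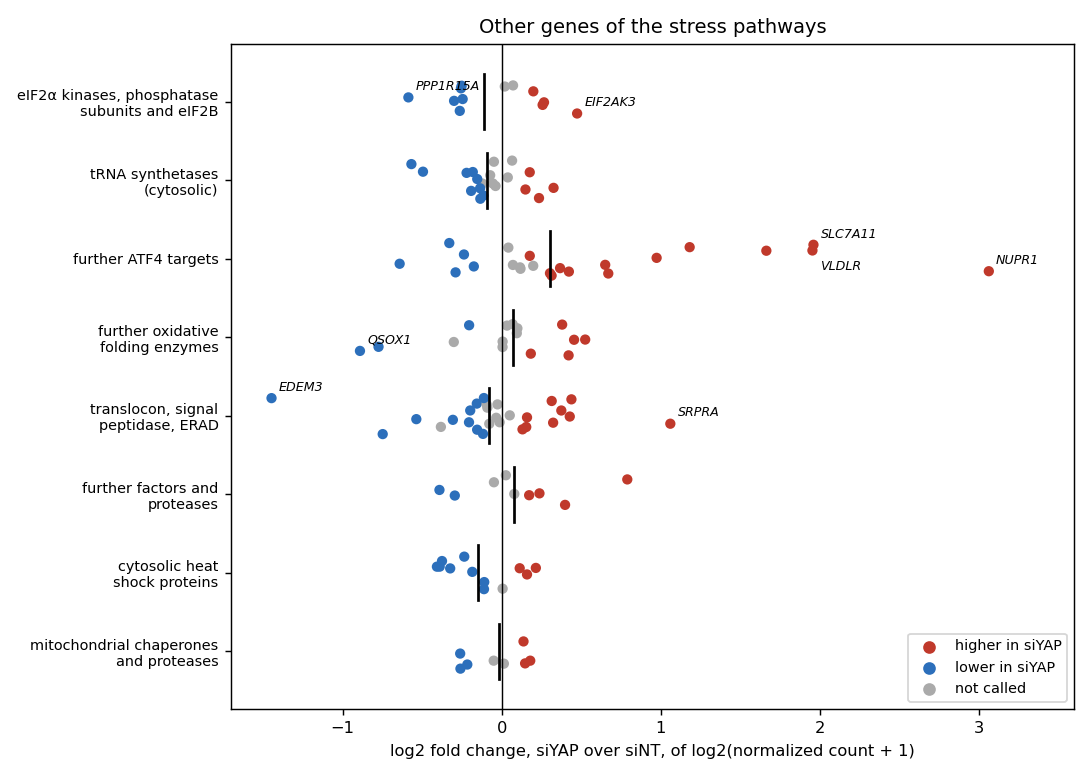
Log2 fold changes of siYAP over siNT (horizontal axis) of the measured genes of 8 lists around the stress pathways. Each point is a gene coloured by its call, and black bars are list medians. The further ATF4 targets have the highest median, 0.30, and the cytosolic heat shock proteins the lowest, -0.15.

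Around the ER, 5 of 15 further oxidative folding genes rose, 3 fell and 7 were not called (median 0.069). P4HB, the prototype disulfide isomerase, was at 21820 ± 707 and 21904 ± 785 normalized counts (SD, n = 3) and was not called, though it was called higher with equal library totals (adjusted p = 0.0447). PPIB, an ER cyclophilin (log2 0.18), and DNAJC10, an ER reductase and BiP cochaperone (log2 0.52), rose, and the sulfhydryl oxidase gene QSOX1 (log2 -0.89) and the prolyl isomerase gene FKBP14 (log2 -0.77) fell. Of 27 genes of the translocon, signal peptidase and ERAD, 9 rose, 10 fell and 8 were not called (70.4% called, median -0.078). SRPRA, a subunit of the signal recognition particle receptor, rose from 2646 ± 99.2 to 5515 ± 68.3 (SD, n = 3; log2 1.06, limma adjusted p = 1.22e-14). EDEM3, a paralog of EDEM1, fell from 2951 ± 165 to 1082 ± 72.7 (SD, n = 3; log2 -1.45, limma adjusted p = 3.67e-15). SSR3, a translocon-associated subunit, fell (log2 -0.54), as did DERL2, an ERAD membrane protein chosen after its values were seen (log2 -0.75), while SEC61A1, the translocon channel (log2 -0.026), and VCP, the ERAD segregase (log2 -0.034), were not called. Further ERAD genes of this list, named after their values were seen, also went both ways. HERPUD2 (log2 0.44), UBE2J1 (log2 0.43), ERLEC1 (log2 0.37), EDEM2 (log2 0.15) and SELENOS (log2 0.13) rose. DERL1 (log2 -0.31) and OS9 (log2 -0.16) fell, as EDEM3 and DERL2 did, while DERL3 (log2 -0.38) and SYVN1 (log2 -0.013) were not called. The ERAD genes among the 36 thus rose in a set of ER genes that went both ways.

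Of 9 measured genes among 10 further stress factors and proteases of the ER and Golgi, 4 rose, 2 fell and 3 were not called (median 0.079). MBTPS1, the site-1 protease that cuts ATF6 (log2 0.40), and the ATF6-like factors CREB3L1 (log2 0.79) and CREB3L2 (log2 0.24) rose, and TMBIM6 (log2 0.026) was called only with equal library totals (adjusted p = 0.0117). The genes that fell, named after their values were seen, were MBTPS2, the site-2 protease (log2 -0.39), and CREB3L4 (log2 -0.29). ATF6B (log2 -0.049) and CREB3 (log2 0.079) were not called. The chaperones of other compartments were read for comparison. Of 12 cytosolic heat shock genes 8 fell, 3 rose and 1 was not called (median -0.15), with HSP90AB1 (log2 -0.32), HSPA8 (log2 -0.24), HSPA1A (log2 -0.41) and HSPA1B (log2 -0.39) lower. HSPA1A and HSPA1B are near-identical copies whose reads may be split between them. Of 8 mitochondrial chaperones and proteases 3 rose, 3 fell and 2 were not called (median -0.018), with HSPA9, mortalin (log2 -0.22), CLPP (log2 -0.26) and DNAJA3 (log2 -0.26) lower and HSPD1, HSP60, not called (log2 -0.050).

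An earlier search of these same data picked out 3 heptamers of 3′ UTRs, so their presence in a single annotated 3′ UTR per gene (GENCODE 29) is given beside the results. Only TTCTTAA and the heptamer GAGAGGA were found in the 36 genes, and the third, GATAAAG, in none of them. At least 1 was found in 12 of the 36 genes (33.3%) and in 35.8% of all searched genes. Of the 4760 searched genes with at least 1, 1575 were higher, 1647 were lower and 1538 were not called. Of the 8527 searched genes with none, 2848 were higher, 2566 were lower and 3113 were not called. Of the 24 members with none, 10 were higher, 7 were lower and 7 were not called. Of the 12 members with at least 1, 6 were higher, 3 were lower and 3 were not called. The 3 that were lower were EIF4EBP1 (GAGAGGA), SLC7A1 (TTCTTAA) and DNAJC3 (TTCTTAA), while EDEM1, SEL1L and DNAJB9 (each TTCTTAA) rose. The 3′ UTRs of ATF4, ATF3, DDIT3 and CEBPB, of 83, 1222, 221 and 618 bases, held none of the 3. Those of the members with a heptamer ran from 221 bases (CRELD2) to 5423 (SEL1L). A longer 3′ UTR has more room for a match, and length was not taken into account. The part of the heptamers in these differences was not tested.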

How the data were processed

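The authors' deposited signal table holds one normalized read count per gene and library for 3 siNT and 3 siYAP libraries. The tools named in the submitters' processing notes are HISAT2, HTSeq, FastQC and DESeq2, and the builds hg19 and mm9. Their roles, versions, annotation and strand setting were not given in the sources used here, and the library kit was a stranded one per the labels' protocols. In each library 100% of the deposited signal values were whole multiples of its smallest positive value, within 0.01 of a read.

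Symbols were matched by Ensembl identifier (16743 of 17211). The 17200 genes that reached 1 in at least 3 libraries were fitted as log2(value + 1) with limma 3.58.1 (trend, robust) in R 4.3.3, with group alone. Within groups, libraries correlated at 0.995 to 0.996 and differed beyond counting noise (a chi-square of 2.72 to 7.59 for each degree of freedom). Gene coordinates are those of GENCODE 29 (GRCh38), since the table carries none. The self-test used simulated counts, with a scatter set in advance and not estimated from these libraries. It recovered 10 of 50 genes changed 1.2-fold, 31 of 50 at 1.5-fold, 47 of 50 at 2-fold and 48 of 50 at 3-fold. There were 7 false calls among 17185 tested genes. Since the scatter was set, these shares do not give the power for the genes described here.

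The members and lists were chosen with earlier results of these data known. Named were YAP1, the 36 members and, from each list, the 3 genes with the smallest p and the 2 with the highest mean. Alternatives were other scalings, filters, a pseudocount of 0.1, limma without trend or robust, leaving out each library, a block for the replicate number, and edgeR 4.0.16 and DESeq2 1.42.0 on recovered reads.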

Additional observations from a re-analysis of the deposited data

How the results depend on the processing

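Over 16 alternatives, 19 of the 26 called members kept their direction and their call in every one, and in 536 of 576 cases a member stayed on its side of the threshold. No call reversed. Equal library totals changed most: 6 members were lower in place of 10, 5 of the ATF4 arm were lower in place of 8, 8 of the chaperone arm were higher in place of 3 and 1 was lower in place of 2, with medians of -0.021 for the ATF4 arm and 0.144 for the chaperone arm. One gene of the chaperone arm was lower, DNAJC3, with upper-quartile factors, in limma without trend or robust, with the replicate block and in edgeR (1 in each), the call of CALR being lost. The median of that arm was 0.0758 with upper-quartile factors and 0.069 in edgeR. Leaving out one library gave 6 to 9 lower genes in the ATF4 arm and a median of -0.162 to -0.0688 there, 1 to 2 lower genes in the chaperone arm and a median there of 0.0426 (without siYAP replicate 1) to 0.0668. On the recovered reads edgeR called 4916 genes higher and 4655 lower of 15659 tested. The cause of these shifts was not tested.

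The replicate numbers did not pair the libraries (correlations of same-numbered deviations -0.0962, -0.00873 and 0.00831). With the replicate block 4654 genes of the table were higher and 4487 lower, 14 members were higher and 9 lower, 6 of the ATF4 arm were higher and 8 lower, and 2 of the chaperone arm were higher and 1 lower. The medians of the arms were the same with the block, at -0.108 and 0.0571.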
